A study of Homo sapiens with 8 samples.

Results

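Messenger RNA levels of 34 genes of sterol and fatty acid synthesis were followed across IFN-γ treatment and a change of 1 residue in MED12, in a human colon carcinoma line. The genes were taken by symbol from pathway membership, not by a threshold on measured values, and cover the enzymes from acetoacetyl-CoA to cholesterol, the regulators of the SREBP transcription factors, and the enzymes that make, desaturate and elongate fatty acids. Each symbol matched 1 Ensembl gene ID, so they are 34 of the 40295 gene IDs in the deposited table, and all 34 had enough reads to be tested. RNA depleted of ribosomal RNA had been sequenced from HCT116 cells, a colorectal carcinoma line grown in medium with serum, in 8 libraries, 2 per group. The 4 groups were E33Q MED12 knock-in cells given IFN-γ at 5 ng/ml for 24 h, untreated knock-in cells (0 h), wild-type cells given IFN-γ at 5 ng/ml for 24 h, and untreated wild-type cells (0 h). MED12 belongs to the kinase module of Mediator, and the series title concerns how a helix of MED12 activates the kinase CDK8. The knock-in was made with CRISPR-Cas9, and the labels name a single knock-in line, so the E33Q change and other differences of that line cannot be told apart. IFN-γ and 24 h of further culture are likewise joined in the design.

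Cells make cholesterol from acetyl-CoA through mevalonate, the isoprenoid diphosphates, squalene and lanosterol, and they make fatty acids from acetyl-CoA through malonyl-CoA. Many genes of both routes are transcribed by the sterol regulatory element binding proteins SREBP1 and SREBP2, which the chaperone SCAP carries out of the endoplasmic reticulum when sterols are low and which the INSIG proteins hold there when sterols are high. SREBP2 is best known for sterol genes, SREBP1 for fatty acid genes, and both promote transcription of INSIG1 and of their own genes. IFN-γ signals through JAK kinases, and in macrophages interferons are known to lower cholesterol synthesis.

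Libraries held 20901909 to 28045842 counts, and 14792 to 15827 gene IDs per library had at least 10 counts. Replicates of each group differed by more than sampling noise (chi-square per degree of freedom 7.08 to 44.7). The labels do not say that they came from separate cultures, so p-values measure only the spread between these libraries, which may be technical. Of 11 interferon-γ target genes, 11 were higher in treated knock-in and 10 in treated wild-type cells, in keeping with the treatment labels, whereas the E33Q change leaves no mark that a gene count could check. MED12 itself had 33.3 and 30.1 CPM in treated and 12.9 and 11.2 CPM in untreated knock-in cells, and 34.3 and 28.3 CPM in treated and 23.1 and 14.2 CPM in untreated wild-type cells. Colorectal epithelial markers summed to 5149 and 5181 CPM in treated and 3334 and 3353 CPM in untreated knock-in cells, and to 3888 and 4075 CPM in treated and 3026 and 2341 CPM in untreated wild-type cells, with LGR5 at 0 in every library. Transcripts of plasma cells stood apart. JCHAIN, the joining chain of secreted antibodies, had 0.183 and 114 CPM in treated and 0.0557 and 158 CPM in untreated knock-in cells, and 0 and 0 CPM in treated and 163 and 158 CPM in untreated wild-type cells. The 19 plasma cell markers summed to 180 and 676 CPM in treated and 235 and 807 CPM in untreated knock-in cells, and to 124 and 122 CPM in treated and 724 and 891 CPM in untreated wild-type cells. Replicate 2 of both knock-in groups and both untreated wild-type libraries thus carried them. Values are given below without those knock-in libraries, while for the wild-type response, where every untreated library carries them, their part in the result was not tested.

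Levels are normalised read counts (CPM, counts relative to the TMM-scaled library total), and changes are log2 fold changes from edgeR's quasi-likelihood test over 16519 genes, called at a Benjamini-Hochberg adjusted p below 0.05. In bulk RNA, fewer cells of a kind and less RNA per cell cannot be told apart. Per kilobase of the longest annotated transcript, the mean level over all libraries was highest for SCD (328 CPM per kb), then FDPS (99.2) and ACLY (94.3), and lowest for FADS2 (2.71). The levels of all 34 genes in every library are in the plot of counts by group.

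**Figure D1:**
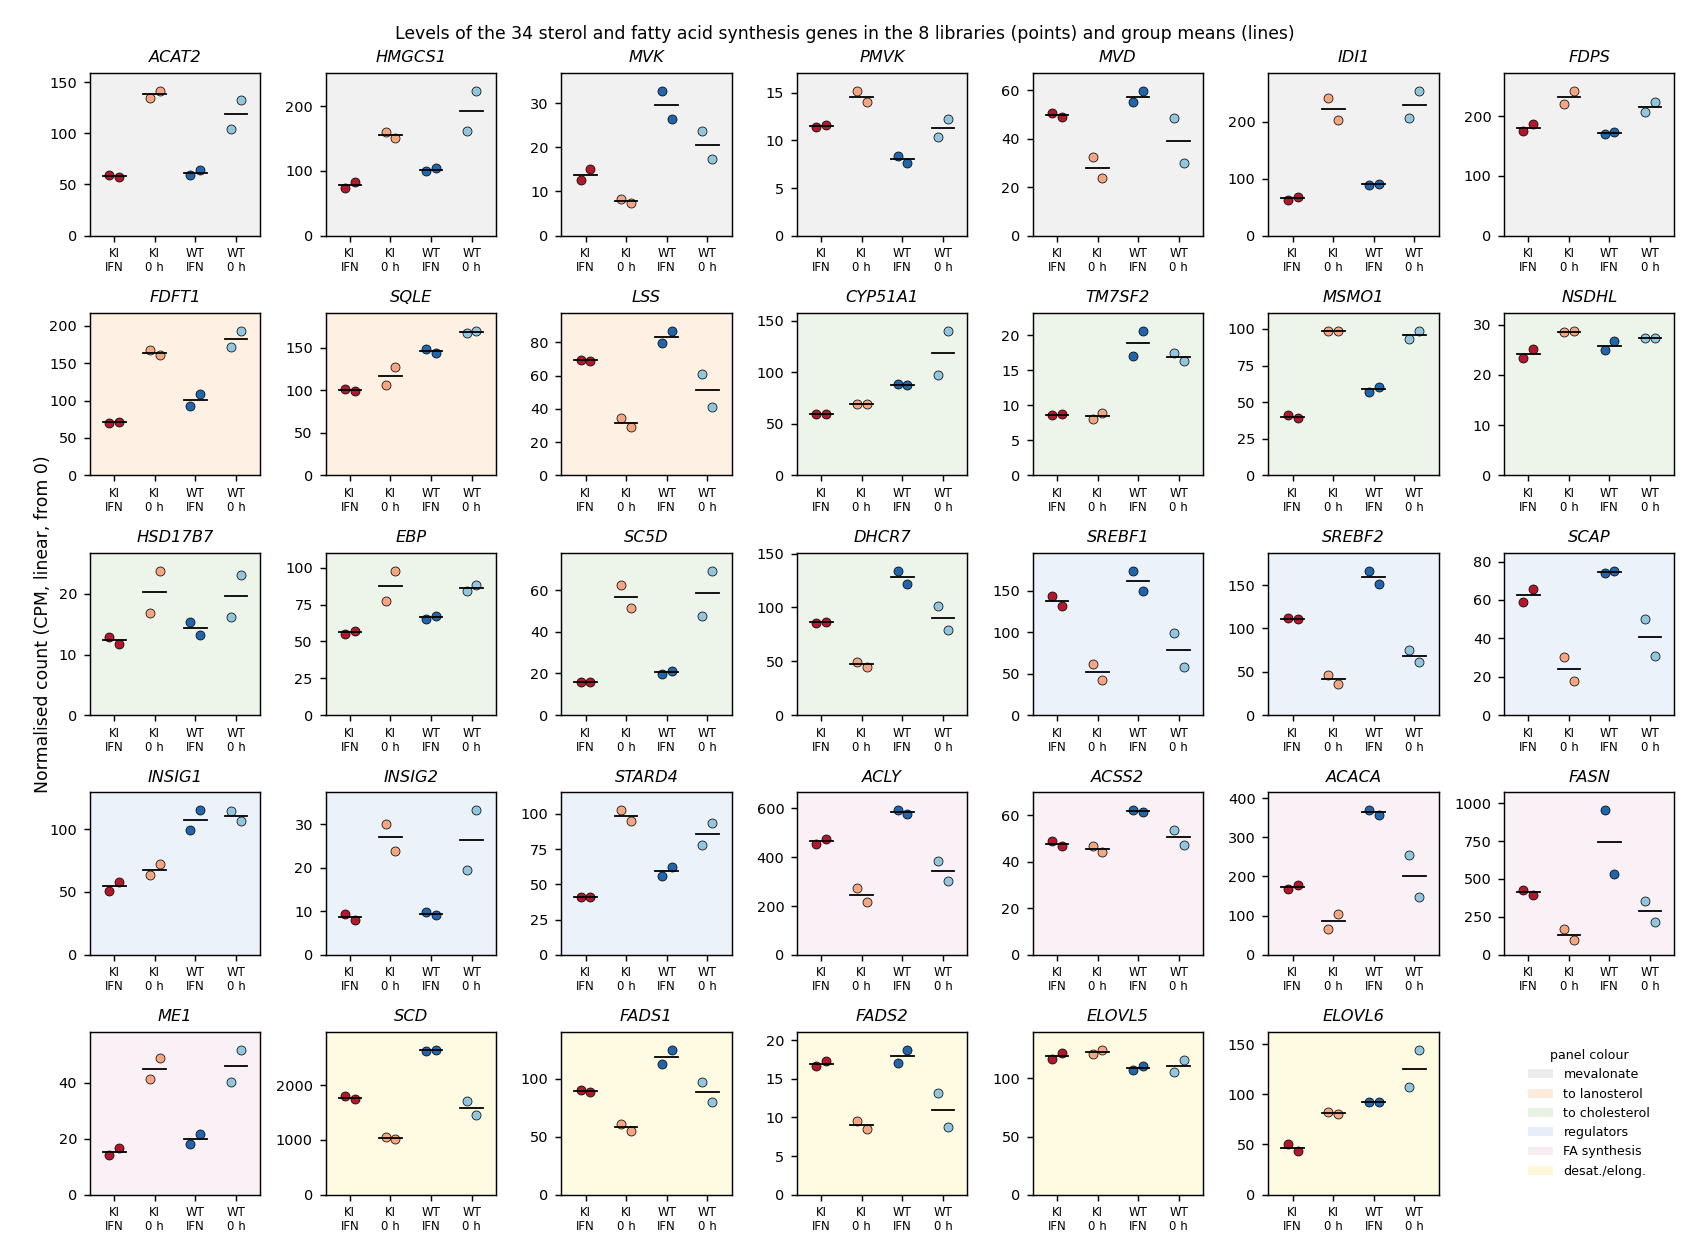
Normalised counts (CPM, linear axis from 0, a scale of its own for each gene) of the 34 genes in the 8 libraries. Points are libraries, 2 per group, and lines are group means, for knock-in (KI) and wild-type (WT) cells with IFN-γ or untreated (0 h), with panels coloured by pathway step. IDI1, SC5D and INSIG2 lie lower in treated than in untreated cells of both lines, SREBF2 and ACACA lie higher, and TM7SF2 and MVK separate the lines.

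With IFN-γ, several early and late enzymes of sterol synthesis fell in both lines, relative to the TMM-scaled library total. SREBF1, SREBF2 and SCAP and the core enzymes of fatty acid synthesis rose on the same scale. In knock-in cells 13 genes were higher and 13 lower, where 26.4% of all tested genes were called higher and 25.8% lower (52.1% either way). In wild-type cells 11 were higher and 9 lower, where 17.1% of all genes were called higher and 20.8% lower (37.9% either way). Every one of those 20 was called in the same direction in knock-in cells, from libraries that the 2 responses do not share. The share of all tested genes called the same way in both lines was not counted. This overlap can therefore not be called particular to the 34 genes. In knock-in cells both treated libraries lay above both untreated ones in 13 of the 34 genes and below in 18. In wild-type cells these were 14 and 17. The share of all tested genes separated in this way was not counted. Such separation, given below for single genes, can therefore not be called particular to them. The median log2 fold change of the 34 genes was -0.22 in knock-in cells (0.12 over all tested genes) and -0.06 in wild-type cells (0.08 over all tested genes), as risers and fallers lay on both sides. Scaled to the ERCC spike-ins instead, which moves the median of all genes by -0.53 in knock-in and -0.80 in wild-type cells, 1 gene (SREBF2) was called higher and 19 lower in knock-in cells, and 0 higher and 20 lower in wild-type cells. Spike-ins took 0.263% of the counts in both treated and 0.138 and 0.141% in untreated knock-in libraries, and 0.228 and 0.271% in treated and 0.110 and 0.128% in untreated wild-type libraries. Spike-in scaling moves all genes of a comparison by nearly the same amount, here downwards, so a fall could not turn into a rise. All 13 rises of knock-in cells stayed positive, at 0.09 to 1.10. Of the 11 wild-type rises, 6 turned negative with this scaling. They were at -0.081 for SCD, -0.052 for ACLY, -0.14 for FADS2, -0.40 for FADS1, -0.14 for LSS and -0.31 for DHCR7.

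**Figure D2:**
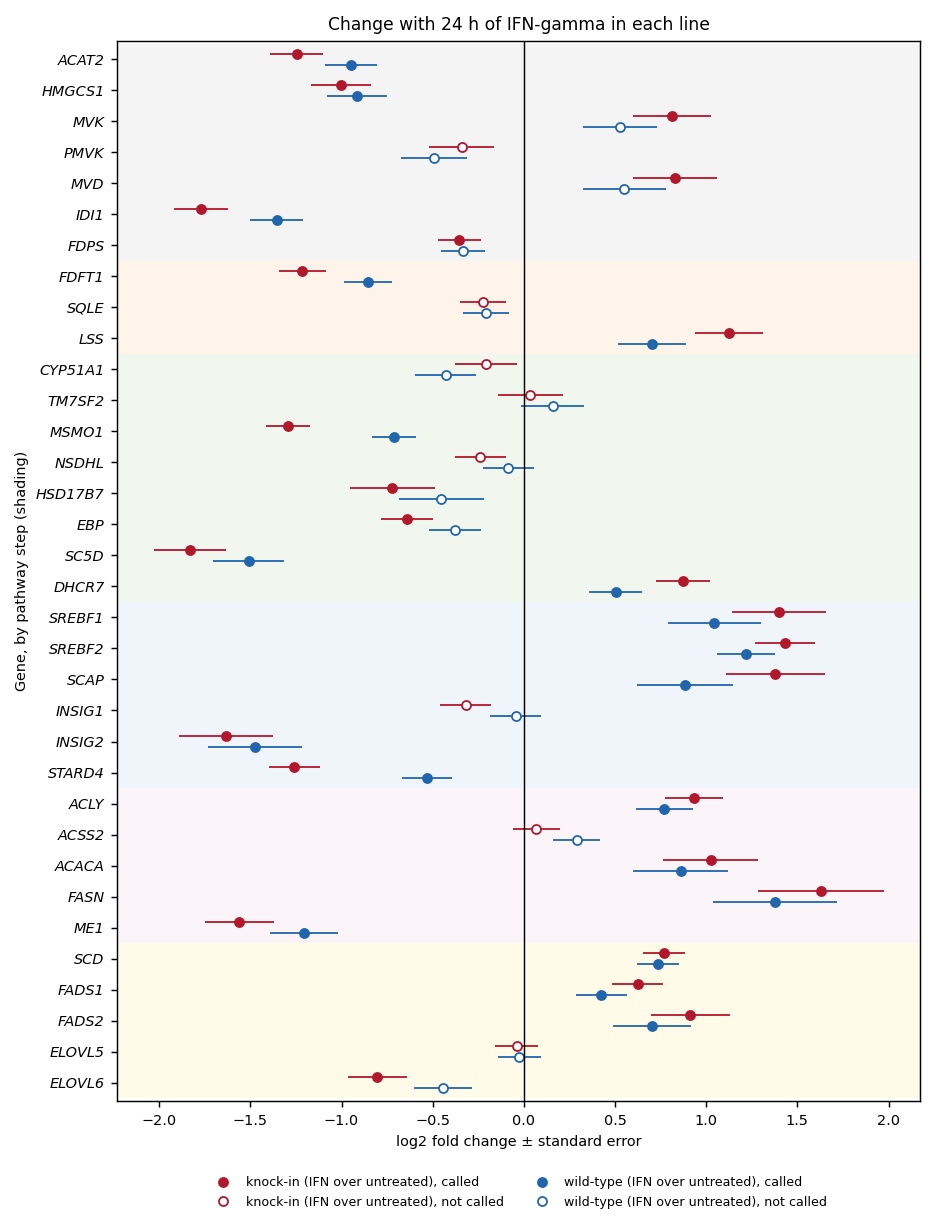
Log2 fold change with IFN-γ (treated over untreated, bars are standard errors) of the 34 genes, grouped by pathway step (shading), in knock-in (red) and wild-type (blue) cells. Filled points passed the threshold. SC5D and IDI1 have the lowest values in knock-in cells and FASN the highest in both lines.

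Of the 7 genes of the mevalonate steps, 4 fell and 2 rose in knock-in cells, and 3 fell in wild-type cells. IDI1, isopentenyl-diphosphate isomerase, had 62.7 and 67.7 CPM in treated and 242 and 203 CPM in untreated knock-in cells, and 89.3 and 90.3 CPM in treated and 207 and 253 CPM in untreated wild-type cells. Its log2 fold change was -1.77 ± 0.15 in knock-in and -1.36 ± 0.15 in wild-type cells (SE; edgeR adjusted p = 0.000102 and 0.000435). Treated and untreated libraries did not overlap in either line. ACAT2, the cytosolic acetoacetyl-CoA thiolase that starts the route, had 59.3 and 57.0 CPM in treated and 135 and 141 CPM in untreated knock-in cells, and 59.2 and 63.8 CPM in treated and 104 and 133 CPM in untreated wild-type cells. The log2 fold change of ACAT2 was -1.25 ± 0.14 in knock-in and -0.95 ± 0.14 in wild-type cells (SE; edgeR adjusted p = 0.000219 and 0.00127). Every treated library lay below every untreated library of its line. HMGCS1, the synthase that makes HMG-CoA, had 73.0 and 82.3 CPM in treated and 161 and 151 CPM in untreated knock-in cells, and 99.6 and 104 CPM in treated and 161 and 223 CPM in untreated wild-type cells. For HMGCS1 the log2 fold change was -1.005 ± 0.16 in knock-in and -0.92 ± 0.16 in wild-type cells (SE; edgeR adjusted p = 0.000906 and 0.00261). HMGCS1 libraries were separated in the same way.

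The remaining mevalonate genes moved less. FDPS, farnesyl diphosphate synthase, whose processed pseudogenes could share its reads, fell in knock-in cells at -0.35 ± 0.12 (SE; edgeR adjusted p = 0.0306) and had -0.33 ± 0.12 in wild-type cells, which missed the threshold (edgeR adjusted p = 0.0513). MVK, mevalonate kinase, and MVD, the mevalonate diphosphate decarboxylase, rose in knock-in cells, at 0.81 ± 0.21 and 0.83 ± 0.23 (edgeR adjusted p = 0.00986 and 0.0132), with 0.53 ± 0.20 and 0.55 ± 0.23 in wild-type cells that missed it (edgeR adjusted p = 0.0685 and 0.0844). PMVK, phosphomevalonate kinase, passed in neither line, at -0.34 ± 0.18 in knock-in and -0.49 ± 0.18 in wild-type cells. The route from acetoacetyl-CoA to farnesyl diphosphate thus held genes called in both directions.

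Among the 3 genes from farnesyl diphosphate to lanosterol, 1 fell, 1 rose and 1 passed in neither line. FDFT1, squalene synthase, had 69.4 and 71.9 CPM in treated and 167 and 160.4 CPM in untreated knock-in cells, and 93.3 and 108 CPM in treated and 172 and 193 CPM in untreated wild-type cells. FDFT1 changed by -1.21 ± 0.13 in knock-in and -0.85 ± 0.13 in wild-type cells (SE; edgeR adjusted p = 0.000191 and 0.00129), with no overlap between treated and untreated libraries. LSS, lanosterol synthase, had 69.5 and 68.8 CPM in treated and 34.3 and 29.2 CPM in untreated knock-in cells, and 79.8 and 86.8 CPM in treated and 61.0 and 41.3 CPM in untreated wild-type cells. LSS changed by 1.12 ± 0.19 in knock-in and 0.70 ± 0.19 in wild-type cells (SE; edgeR adjusted p = 0.00102 and 0.0158) and did not overlap either, opposite in direction to FDFT1. SQLE, squalene epoxidase, had 101 and 98.5 CPM in treated and 106 and 127 CPM in untreated knock-in cells, and 148 and 144 CPM in treated and 167 and 169 CPM in untreated wild-type cells, and its change of -0.22 ± 0.13 in knock-in and -0.21 ± 0.13 in wild-type cells missed the threshold (edgeR adjusted p = 0.173 and 0.226).

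Of the 8 genes from lanosterol to cholesterol, 4 fell and 1 rose in knock-in cells, and 2 fell and 1 rose in wild-type cells. SC5D, the lathosterol desaturase, had 15.9 and 16.0 CPM in treated and 62.3 and 51.5 CPM in untreated knock-in cells, and 19.8 and 21.3 CPM in treated and 47.9 and 69.4 CPM in untreated wild-type cells. The change of SC5D was -1.83 ± 0.20 in knock-in and -1.51 ± 0.20 in wild-type cells (SE; edgeR adjusted p = 0.00019 and 0.000687). MSMO1, the methylsterol monooxygenase, had 41.2 and 38.9 CPM in treated and 98.3 and 98.2 CPM in untreated knock-in cells, and 57.1 and 60.2 CPM in treated and 93.3 and 98.5 CPM in untreated wild-type cells, and changed by -1.29 ± 0.12 in knock-in and -0.71 ± 0.12 in wild-type cells (SE; edgeR adjusted p = 0.00016 and 0.00207). Both genes were below their untreated libraries in every treated library. DHCR7, which makes cholesterol from 7-dehydrocholesterol, the product of SC5D, had 86.0 and 86.7 CPM in treated and 49.2 and 45.1 CPM in untreated knock-in cells, and 134 and 122 CPM in treated and 101 and 79.1 CPM in untreated wild-type cells, and changed by 0.87 ± 0.15 in knock-in and 0.50 ± 0.15 in wild-type cells (SE; edgeR adjusted p = 0.00113 and 0.0247). The 2 last enzymes of the route were thus called in opposite directions. EBP, the sterol isomerase, and HSD17B7, a sterone reductase with a near-identical pseudogene that could share its reads, fell in knock-in cells, at -0.64 ± 0.14 and -0.72 ± 0.23 (edgeR adjusted p = 0.00432 and 0.0261). Their -0.38 ± 0.14 and -0.45 ± 0.23 in wild-type cells missed the threshold (edgeR adjusted p = 0.0619 and 0.153). CYP51A1, lanosterol demethylase, had 60.0 and 59.7 CPM in treated and 69.5 and 68.9 CPM in untreated knock-in cells, and 88.4 and 87.6 CPM in treated and 97.0 and 140.1 CPM in untreated wild-type cells, and its -0.21 ± 0.17 in knock-in and -0.43 ± 0.17 in wild-type cells passed in neither (edgeR adjusted p = 0.34 and 0.0706). TM7SF2 and NSDHL did not pass either.

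Of the 6 regulators and sterol carriers, the same 3 rose and the same 2 fell in both lines. SREBF2, the gene of SREBP2, had 112 and 111 CPM in treated and 46.2 and 36.3 CPM in untreated knock-in cells, and 166 and 151 CPM in treated and 75.4 and 61.0 CPM in untreated wild-type cells, and changed by 1.43 ± 0.16 in knock-in and 1.22 ± 0.16 in wild-type cells (SE; edgeR adjusted p = 0.00021 and 0.000727). SREBF1, the gene of SREBP1, had 144 and 131 CPM in treated and 61.9 and 42.6 CPM in untreated knock-in cells, and 174 and 149.6 CPM in treated and 99.5 and 57.5 CPM in untreated wild-type cells, and changed by 1.40 ± 0.26 in knock-in and 1.04 ± 0.26 in wild-type cells (SE; edgeR adjusted p = 0.00167 and 0.0113). SCAP, their escort, had 59.1 and 65.7 CPM in treated and 30.3 and 17.9 CPM in untreated knock-in cells, and 74.2 and 75.2 CPM in treated and 49.97 and 31.0 CPM in untreated wild-type cells, and changed by 1.38 ± 0.27 in knock-in and 0.88 ± 0.27 in wild-type cells (SE; edgeR adjusted p = 0.00228 and 0.0275). All treated libraries of the 3 genes were above the untreated libraries of the same line. INSIG2, a retention protein, had 9.30 and 8.10 CPM in treated and 30.1 and 23.9 CPM in untreated knock-in cells, and 9.77 and 9.18 CPM in treated and 19.5 and 33.2 CPM in untreated wild-type cells, and changed by -1.63 ± 0.26 in knock-in and -1.47 ± 0.26 in wild-type cells (SE; edgeR adjusted p = 0.000738 and 0.00227). STARD4, a carrier of cholesterol between membranes, had 41.0 and 41.4 CPM in treated and 102 and 94.7 CPM in untreated knock-in cells, and 56.2 and 62.5 CPM in treated and 78.1 and 93.5 CPM in untreated wild-type cells, and changed by -1.26 ± 0.14 in knock-in and -0.53 ± 0.14 in wild-type cells (SE; edgeR adjusted p = 0.000199 and 0.0149). Both were below in every treated library. INSIG1, a target of the SREBPs that retains them, had 50.9 and 57.8 CPM in treated and 63.7 and 72.0 CPM in untreated knock-in cells, and 99.4 and 115 CPM in treated and 114 and 107 CPM in untreated wild-type cells. Its -0.32 ± 0.14 in knock-in and -0.045 ± 0.14 in wild-type cells missed the threshold (edgeR adjusted p = 0.0841 and 0.827), and treated and untreated wild-type libraries overlapped.

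Promoter sequence is shown for 4 genes that moved in different ways and hold the core of a sterol regulatory element, the letters to which SREBPs are known to bind. SREBF2 and SCD rose, IDI1 fell, and INSIG1 did not pass in the IFN-γ comparisons. RefSeq windows on GRCh38.p14, from 250 bases before to 50 after each transcription start, were matched by symbol for 30 of the 34 genes (41 windows). The long pattern TCACNCCAC, searched on both strands, was in 1 of the 41 windows (SREBF2) and in 1.13% of all 35116 windows. Its core CACNCCAC, contained in the long pattern and added after that result, was in 7 of 41 (17.1%), of ACACA, IDI1, INSIG1, SC5D, SCD and SREBF2, and in 5.87% of all windows. The CCAAT box, also added after, was in 26 of 41 (63.4%) and in 34.6% of all windows. A match describes letters and is not a bound site, and windows of the same gene may overlap. The 4 sequences run 5′ to 3′ on the strand of the gene, capitals mark the core match (read as GTGGNGTG where it lies on the other strand), and the windows are chr22:41832855-41833154 (plus strand) for SREBF2, chr7:155297628-155297927 (plus) for INSIG1, chr10:100346983-100347282 (plus) for SCD and chr10:1048837-1049136 (minus) for IDI1.
SREBF2: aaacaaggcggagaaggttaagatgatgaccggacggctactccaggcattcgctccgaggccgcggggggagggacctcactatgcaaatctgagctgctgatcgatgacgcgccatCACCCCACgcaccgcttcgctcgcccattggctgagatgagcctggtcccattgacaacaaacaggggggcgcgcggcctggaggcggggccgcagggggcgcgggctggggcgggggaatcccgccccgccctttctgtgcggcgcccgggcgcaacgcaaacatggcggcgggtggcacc
INSIG1: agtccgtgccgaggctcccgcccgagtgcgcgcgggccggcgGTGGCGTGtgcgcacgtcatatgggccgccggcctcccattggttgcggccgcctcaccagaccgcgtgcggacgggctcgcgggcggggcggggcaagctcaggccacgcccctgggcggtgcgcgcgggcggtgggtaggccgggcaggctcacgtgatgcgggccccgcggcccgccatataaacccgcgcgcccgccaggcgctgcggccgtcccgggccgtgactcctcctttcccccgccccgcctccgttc
SCD: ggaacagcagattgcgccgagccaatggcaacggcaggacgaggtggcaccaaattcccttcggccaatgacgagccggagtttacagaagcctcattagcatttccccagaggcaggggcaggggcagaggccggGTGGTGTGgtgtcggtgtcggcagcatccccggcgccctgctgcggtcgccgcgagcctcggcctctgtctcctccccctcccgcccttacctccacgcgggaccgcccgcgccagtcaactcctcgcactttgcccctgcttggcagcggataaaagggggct
IDI1: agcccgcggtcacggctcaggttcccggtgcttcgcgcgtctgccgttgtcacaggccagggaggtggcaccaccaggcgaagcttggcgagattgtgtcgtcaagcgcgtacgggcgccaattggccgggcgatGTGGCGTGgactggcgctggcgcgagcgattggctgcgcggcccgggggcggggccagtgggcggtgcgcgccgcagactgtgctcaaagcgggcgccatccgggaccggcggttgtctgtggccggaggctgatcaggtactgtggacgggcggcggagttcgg
The match began 132 bases before the start in SREBF2, 208 in INSIG1, 114 in SCD and 115 in IDI1. Genes with the core were called in both directions.

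Of the 5 genes that supply acetyl-CoA or NADPH and build fatty acids, 3 rose and 1 fell in both lines. FASN, fatty acid synthase, had 427 and 395 CPM in treated and 169 and 96.4 CPM in untreated knock-in cells, and 952 and 532 CPM in treated and 357 and 214 CPM in untreated wild-type cells, and changed by 1.63 ± 0.34 in knock-in and 1.38 ± 0.34 in wild-type cells (SE; edgeR adjusted p = 0.00334 and 0.0119). The 2 treated wild-type libraries of FASN lay far apart, yet both were above the untreated ones. ACACA, acetyl-CoA carboxylase 1, had 169 and 178 CPM in treated and 66.6 and 104 CPM in untreated knock-in cells, and 368 and 358 CPM in treated and 254 and 146 CPM in untreated wild-type cells, and changed by 1.02 ± 0.26 in knock-in and 0.86 ± 0.26 in wild-type cells (SE; edgeR adjusted p = 0.00881 and 0.0279). ACACA, too, did not overlap between treated and untreated libraries of a line. ACLY, which splits citrate to acetyl-CoA, rose at 0.93 ± 0.16 in knock-in and 0.77 ± 0.16 in wild-type cells (edgeR adjusted p = 0.00104 and 0.00479). ME1, cytosolic malic enzyme and a source of NADPH, went the other way. ME1 had 14.0 and 16.6 CPM in treated and 41.3 and 48.8 CPM in untreated knock-in cells, and 18.1 and 21.7 CPM in treated and 40.1 and 51.7 CPM in untreated wild-type cells, and changed by -1.56 ± 0.19 in knock-in and -1.21 ± 0.19 in wild-type cells (SE; edgeR adjusted p = 0.000261 and 0.00142). ACSS2, acetyl-CoA synthetase, had 0.069 ± 0.13 and 0.29 ± 0.13 and passed in neither line.

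Of the 5 desaturases and elongases, 3 rose in both lines and 1 fell in knock-in cells. SCD, the stearoyl-CoA desaturase, had 1800.4 and 1753 CPM in treated and 1062 and 1022 CPM in untreated knock-in cells, and 2636 and 2645 CPM in treated and 1719 and 1452 CPM in untreated wild-type cells, and changed by 0.77 ± 0.12 in knock-in and 0.74 ± 0.12 in wild-type cells (SE; edgeR adjusted p = 0.00061 and 0.0015). ELOVL6, which elongates saturated and monounsaturated chains, had 50.4 and 42.9 CPM in treated and 82.6 and 80.3 CPM in untreated knock-in cells, and 92.2 and 92.1 CPM in treated and 107 and 144 CPM in untreated wild-type cells, and changed by -0.80 ± 0.16 in knock-in and -0.44 ± 0.16 in wild-type cells (SE; edgeR adjusted p = 0.00266 and 0.054), so that the wild-type value missed the threshold. In both genes treated and untreated libraries of a line did not overlap. FADS2 had 16.6 and 17.3 CPM in treated and 9.53 and 8.49 CPM in untreated knock-in cells, and 17.1 and 18.7 CPM in treated and 13.2 and 8.77 CPM in untreated wild-type cells, and changed by 0.91 ± 0.22 in knock-in and 0.70 ± 0.21 in wild-type cells (SE; edgeR adjusted p = 0.00595 and 0.0288). FADS1 had 90.0 and 88.6 CPM in treated and 60.8 and 55.0 CPM in untreated knock-in cells, and 113 and 124 CPM in treated and 96.8 and 79.8 CPM in untreated wild-type cells, and changed by 0.63 ± 0.14 in knock-in and 0.42 ± 0.14 in wild-type cells (SE; edgeR adjusted p = 0.00452 and 0.0382). FADS1 and FADS2, desaturases of polyunsaturated chains, overlap on opposite strands and the strandedness of the counting is not given in the sources used here, so their reads may be mixed. For both, all treated libraries were above the untreated ones of the line. ELOVL5, at -0.039 ± 0.12 and -0.025 ± 0.12, passed in neither line.

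The base composition of the transcripts moved with the rises and falls. Counts in treated knock-in libraries came from transcripts averaging 48.1% GC, against 45.2 and 45.3% in untreated knock-in libraries, and in treated wild-type libraries from 48.0 and 47.9%, against 46.6 and 45.4% in untreated ones. The median GC content of the genes that rose was 58.3% in both lines, while that of the genes that fell was 41.1% in knock-in and 39.5% in wild-type cells. Over the 34 genes, which share their libraries, Pearson's r of the log2 fold change with GC content was 0.77 in knock-in and 0.74 in wild-type cells, and over 15270 genes it was 0.55 and 0.29. After the dependence on GC content and length was taken out of each library, r over the 34 genes was 0.18 and 0.30, and 5 genes were called higher and 10 lower in knock-in cells, and 6 higher and 9 lower in wild-type cells. Calls over all tested genes fell as well, from 8613 to 5110 in knock-in and from 6256 to 4093 in wild-type cells. ACAT2, IDI1, FDFT1, SC5D and ME1 kept their fall in both lines, with ACAT2 at -1.46 and -1.14 and IDI1 at -1.09 and -0.87. SREBF2 (0.43 and 0.56) and SCD (0.51 and 0.52) kept their rise. LSS, DHCR7, SCAP, FASN, ACACA and FADS1 no longer passed in either line. In knock-in cells the calls of 7 more genes were lost, with SREBF1 at 0.28, HMGCS1 at -0.25, MSMO1 at -0.24, INSIG2 at -0.45, STARD4 at -0.062, HSD17B7 at -0.066 and MVD at 0.034. FADS2 turned to -0.11 and MVK to -0.12 there and were not called. In wild-type cells SREBF1, HMGCS1 and INSIG2 still passed, at 0.42, -0.37 and -0.57, and MSMO1 turned to 0.074 and was not called. STARD4, lower in wild-type cells as first scaled, was called higher there with the trend removed, at 0.31 (edgeR adjusted p = 0.0421). Some genes that had passed in neither line became calls. ELOVL5 was higher in both lines (0.62 in knock-in and 0.44 in wild-type cells), and in knock-in cells CYP51A1 was higher (0.45) and ACSS2 and TM7SF2 were lower (-0.51 and -0.71).

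**Figure D3:**
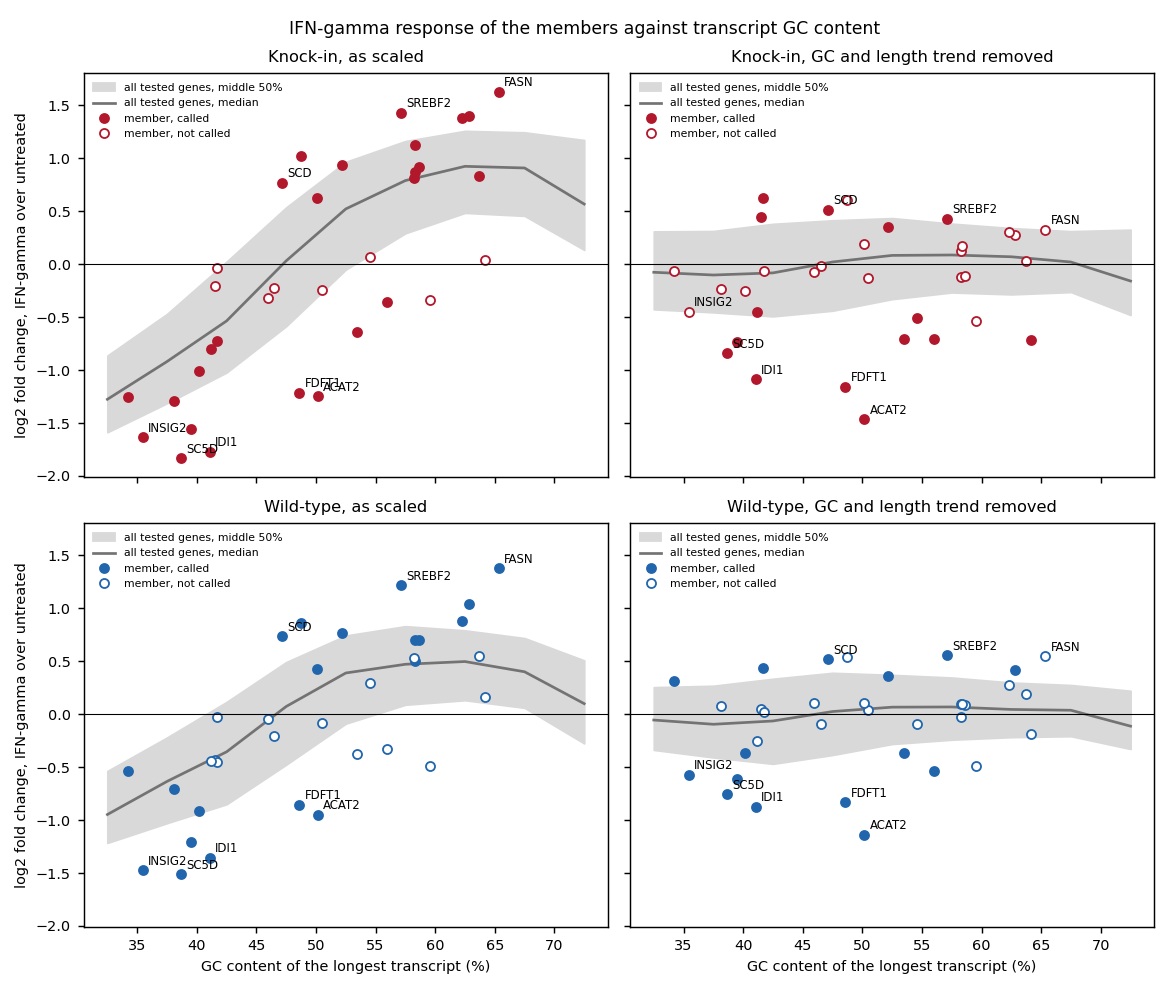
Log2 fold change with IFN-γ of the 34 genes (points, filled where called) against the GC content of the longest transcript, for knock-in (top) and wild-type cells (bottom), as scaled (left) and with the trend on GC content and length removed (right). The grey line and band are the median and middle 50% of all tested genes in bins of GC content. The points climb with GC content on the left and do so less on the right, where ACAT2, IDI1 and FDFT1 remain well below 0.

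Single libraries mattered for the smaller changes, and leaving 1 out leaves 1 library in its group. In each such fit, calls over all tested genes moved the same way as those of the 34 genes. The shifts in the counts are thus not particular to the 34 genes. Without treated wild-type replicate 1 the wild-type count was 11, with SREBF1, SCAP, FADS2, FADS1, LSS, STARD4, FASN, DHCR7 and ACACA lost (edgeR adjusted p of 0.0609 to 0.16). It was 13 without treated wild-type replicate 2, with SCAP, FADS2, FADS1, LSS, STARD4, DHCR7 and ACACA lost. Without untreated wild-type replicate 2 it was 14, with SCAP, FADS2, FADS1, FASN, DHCR7 and ACACA lost and LSS at 0.45. Without untreated wild-type replicate 1 it was 28, with none lost. Each single library left out of the knock-in groups left 22 to 25 called. HSD17B7 and FDPS missed the threshold without treated replicate 1, treated replicate 2 or untreated replicate 2, MVD without treated replicate 1 or untreated replicate 2, MVK without either replicate 2, and ACACA without untreated replicate 1, at 0.74. Without both knock-in libraries that carry plasma cell transcripts, 5 genes were called higher and 9 lower in knock-in cells, and MVK, SCAP, ACLY, HSD17B7, FADS2, EBP, FADS1, FDPS, MVD, FASN, ELOVL6 and DHCR7 missed the threshold. ACAT2, FDFT1, IDI1, ME1 and SC5D passed in both lines in each alternative tried.

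Neighbouring pathways were counted from lists of their genes. Of 8 genes that process SREBPs or degrade sterol enzymes, 4 rose and 2 fell in knock-in cells, and 0 rose and 2 fell in wild-type cells. RNF139, an ubiquitin ligase of the endoplasmic reticulum, fell at -1.17 ± 0.17 in knock-in and -0.92 ± 0.17 in wild-type cells (edgeR adjusted p = 0.000487 and 0.00269). SYVN1, another such ligase, rose at 1.16 ± 0.22 in knock-in cells, and MBTPS2, a protease that releases SREBPs from the membrane, fell at -0.52 ± 0.16 in wild-type cells, where it was 0.23 with the GC and length trend removed (edgeR adjusted p = 0.00204 and 0.0315). Of 7 genes of the isoprenoid branch, 1 rose and 4 fell in each line, among them GGPS1, geranylgeranyl diphosphate synthase, at -1.20 ± 0.20 in knock-in and -1.01 ± 0.20 in wild-type cells (edgeR adjusted p = 0.00106 and 0.00445). DHDDS, a subunit of the dolichol-making prenyltransferase, rose at 0.87 ± 0.17 in knock-in cells, and PDSS1, which makes the side chain of coenzyme Q, fell at -1.05 ± 0.17 in wild-type cells (edgeR adjusted p = 0.00189 and 0.00153). Of 7 genes of sterol export, esterification and LXR, 1 rose and 1 fell in knock-in cells and 2 rose in wild-type cells. NR1H2, the LXR-β gene, rose at 0.86 ± 0.21 in knock-in and 0.63 ± 0.20 in wild-type cells (edgeR adjusted p = 0.00622 and 0.0373), though the wild-type value was -0.19 when scaled to the spike-ins. MYLIP, a ligase that degrades the LDL receptor, rose at 0.60 ± 0.21 in wild-type cells, but was -0.19 under that scaling, and SOAT1, which esterifies cholesterol, fell at -0.60 ± 0.14 in knock-in cells (edgeR adjusted p = 0.0436 and 0.0058). Of 18 genes of fatty acid supply, elongation and activation, 8 rose and 6 fell in knock-in cells and 4 rose and 5 fell in wild-type cells. OXSM, the mitochondrial ketoacyl synthase, fell at -1.34 ± 0.18 in knock-in and -1.45 ± 0.18 in wild-type cells (edgeR adjusted p = 0.000336 and 0.000561). TECR, a reductase of chain elongation, rose at 1.72 ± 0.22 in knock-in cells, and GPAM, which starts glycerolipid synthesis, fell at -1.24 ± 0.17 in wild-type cells (edgeR adjusted p = 0.000293 and 0.0009).

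Set against wild-type cells, knock-in cells had less RNA of 11 of the 34 genes without IFN-γ and of 6 with IFN-γ, and more of none. Of all tested genes, 8.43% were called either way and 4.26% higher and 4.17% lower without IFN-γ, and 2.91% either way, 1.63% higher and 1.28% lower with it. Without IFN-γ the median log2 difference (knock-in over wild-type) of the 34 genes was -0.39, against -0.02 over all tested genes, and with IFN-γ it was -0.38, against -0.01. Without IFN-γ, 24 of the 34 values were negative, where 51.5% of all tested genes were. In 18 genes both knock-in libraries then lay below both wild-type libraries and in 5 above them, where 25.1% of all tested genes lay below and 25.5% above. With IFN-γ, 31 of the 34 values were negative, where 50.8% of all tested genes were, and the libraries lay below in 27 genes and above in 3, where 29.9% of all tested genes lay below and 27.8% above. ELOVL6, INSIG1, MVK, SCD and TM7SF2 were lower in both states, which is 5 of the 11 and of the 6, from libraries that the 2 comparisons do not share. How many of all tested genes were called lower in both states was not counted, so the recurrence cannot be called particular to the 34 genes. The untreated line difference and each IFN-γ response do share libraries. Spike-in scaling moved the median of all genes by -0.33 without and -0.06 with IFN-γ. The called line differences were all negative, so none could change sign with it. On that scale 10 genes were called lower without and 2 with IFN-γ, among 667 and 195 calls over all tested genes.

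**Figure D4:**
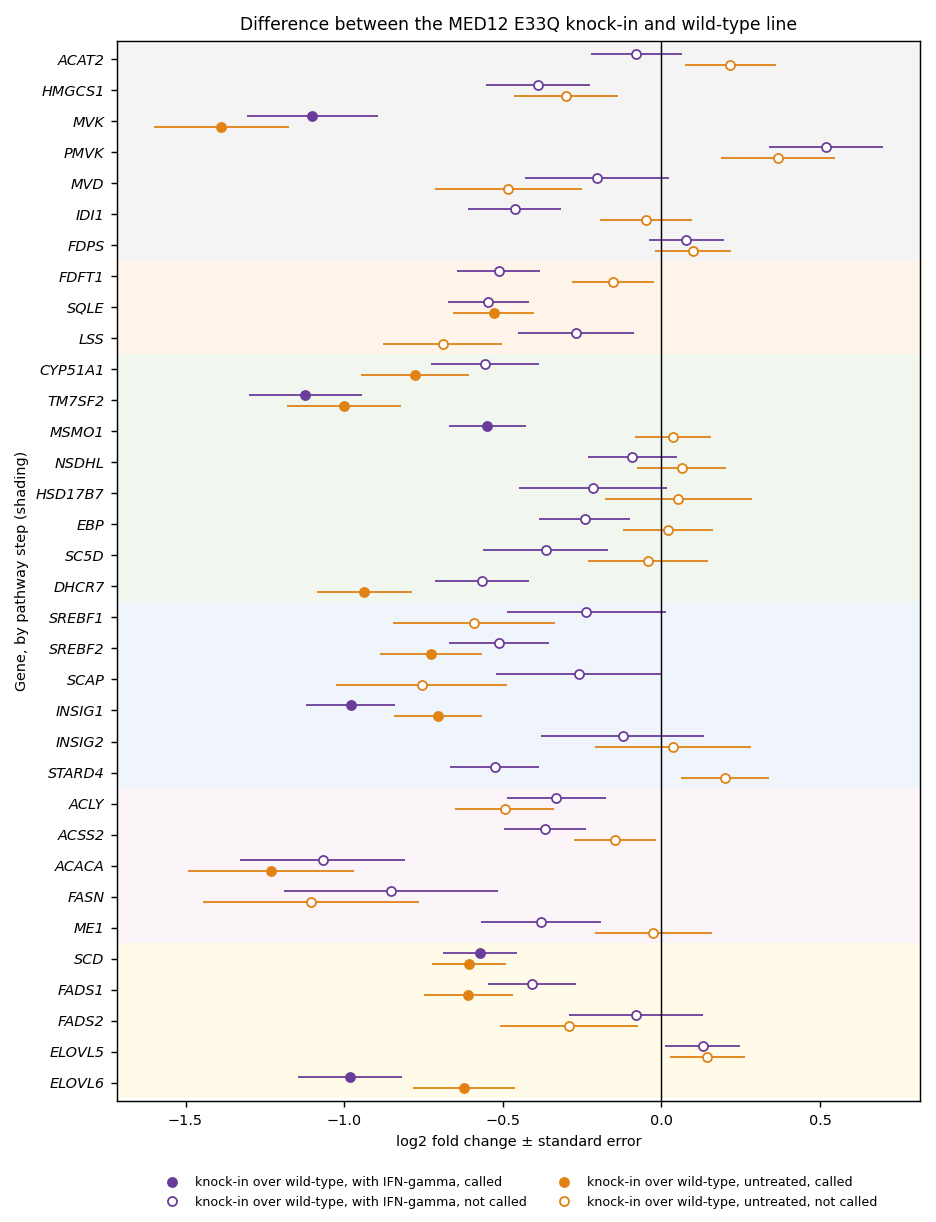
Log2 fold change of knock-in over wild-type cells (bars are standard errors) for the 34 genes, grouped by pathway step (shading), with IFN-γ (purple) and untreated (orange). Filled points passed the threshold, and all of them lie left of 0, with MVK, TM7SF2, ELOVL6 and INSIG1 low in both states.

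Among the mevalonate genes only MVK differed at the threshold. The log2 difference of MVK was -1.39 ± 0.21 without and -1.10 ± 0.21 with IFN-γ (SE; edgeR adjusted p = 0.00591 and 0.0234), and both knock-in groups lay below the wild-type group of the same state in every library. HMGCS1 was at -0.30 ± 0.16 without and -0.39 ± 0.16 with IFN-γ (edgeR adjusted p = 0.269 and 0.294). Of the genes from farnesyl diphosphate to lanosterol, SQLE was lower without IFN-γ, and its difference was -0.53 ± 0.13 without and -0.55 ± 0.13 with IFN-γ (SE; edgeR adjusted p = 0.0364 and 0.0564). Both knock-in libraries of SQLE lay below both wild-type libraries in each state. Of the 8 genes that follow, 3 were lower in untreated knock-in cells. TM7SF2, a sterol reductase, had 8.54 and 8.74 CPM in treated and 7.97 and 8.86 CPM in untreated knock-in cells, and 17.1 and 20.6 CPM in treated and 17.4 and 16.3 CPM in untreated wild-type cells. The TM7SF2 libraries of the lines did not overlap, and the difference was -1.0003 ± 0.18 without and -1.12 ± 0.18 with IFN-γ (SE; edgeR adjusted p = 0.0124 and 0.00961). DHCR7 differed by -0.94 ± 0.15 without and -0.57 ± 0.15 with IFN-γ (SE; edgeR adjusted p = 0.0072 and 0.0834) and CYP51A1 by -0.78 ± 0.17 without and -0.56 ± 0.17 with IFN-γ (SE; edgeR adjusted p = 0.026 and 0.139). MSMO1 was lower with IFN-γ, at 0.035 ± 0.12 without and -0.55 ± 0.12 with IFN-γ (SE; edgeR adjusted p = 0.889 and 0.046).

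Of the regulators, INSIG1 and SREBF2 were lower in untreated knock-in cells and INSIG1 also with IFN-γ. The log2 difference was -0.70 ± 0.14 without and -0.98 ± 0.14 with IFN-γ (SE; edgeR adjusted p = 0.0187 and 0.00591) for INSIG1. The knock-in libraries lay below the wild-type ones in each state. For SREBF2 it was -0.73 ± 0.16 without and -0.51 ± 0.16 with IFN-γ (SE; edgeR adjusted p = 0.0276 and 0.144). SREBF1 was at -0.59 ± 0.26 without and -0.24 ± 0.25 with IFN-γ (SE; edgeR adjusted p = 0.176 and 0.736) and SCAP at -0.76 ± 0.27 without and -0.26 ± 0.26 with IFN-γ (SE; edgeR adjusted p = 0.112 and 0.717), and none of these 4 values passed. The knock-in values of SREBF1 and SCAP were lower on average in both states. Of the fatty acid genes, ACACA differed by -1.23 ± 0.26 without and -1.07 ± 0.26 with IFN-γ (SE; edgeR adjusted p = 0.0241 and 0.0665), while FASN was at -1.11 ± 0.34 without and -0.85 ± 0.34 with IFN-γ (SE; edgeR adjusted p = 0.0758 and 0.263) with wide replicates. For ACACA both knock-in libraries lay below both wild-type libraries in each state. SCD differed by -0.61 ± 0.12 without and -0.57 ± 0.12 with IFN-γ (SE; edgeR adjusted p = 0.0164 and 0.033), ELOVL6 by -0.62 ± 0.16 without and -0.98 ± 0.16 with IFN-γ (SE; edgeR adjusted p = 0.0454 and 0.0123) and FADS1 by -0.61 ± 0.14 without and -0.41 ± 0.14 with IFN-γ (SE; edgeR adjusted p = 0.0316 and 0.192). Of the neighbouring genes, SOAT1 was lower in both states, at -0.60 ± 0.14 without and -1.06 ± 0.14 with IFN-γ (SE; edgeR adjusted p = 0.0332 and 0.00382). MCAT, the mitochondrial malonyltransferase, was lower without IFN-γ at -0.71 ± 0.16 and ACSL3, a long-chain acyl-CoA synthetase, with it at -0.75 ± 0.12 (edgeR adjusted p = 0.0271 and 0.011). No other gene of the 4 neighbouring lists was called between the lines.

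These line differences rested on few libraries, and leaving 1 out leaves 1 library in its group. In each such fit, calls over all tested genes moved the same way as those of the 34 genes. The shifts in the counts are thus not particular to the 34 genes. The count without IFN-γ was 3 without untreated knock-in replicate 1, 1 without untreated knock-in replicate 2, 9 without untreated wild-type replicate 1 and 19 without untreated wild-type replicate 2. Without knock-in replicate 1, CYP51A1, SCD, SQLE, FADS1, TM7SF2, ELOVL6, INSIG1 and ACACA were lost, and without knock-in replicate 2 all but ACACA were, all with negative values. Without wild-type replicate 1, FADS1, SREBF2 and ACACA were lost, and without wild-type replicate 2 CYP51A1 moved to -0.48 and ELOVL6 to -0.39. The calls without wild-type replicate 2 were not all lower in knock-in cells. With IFN-γ, all 6 were lost without either knock-in library or without wild-type replicate 2, and 2 (TM7SF2 and INSIG1) were left without wild-type replicate 1. Without both knock-in libraries that carry plasma cell transcripts, 1 gene was called without IFN-γ and 0 with it. Both untreated wild-type libraries carry these transcripts as well, so without IFN-γ that fit does not take them out of the comparison. After the trend on GC content and length was removed, 14 genes were lower without and 18 with IFN-γ. Calls over all tested genes rose as well, from 1392 to 2418 without and from 481 to 1340 with IFN-γ.

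The response to IFN-γ itself was not called different between the lines for any of the 34 genes, nor for any of all tested genes (0.0%) by edgeR's quasi-likelihood test. At an unadjusted p below 0.05, there were 2 of the 34 (STARD4 and MSMO1, 5.88%) and 1119 of all tested genes (6.77%). Without untreated wild-type replicate 2 these were 13 of the 34 and 4916 of all tested genes. DESeq2 called 4 genes and edgeR with no filter on low counts 267, none of them among the 34. STARD4 had the largest gap, with a knock-in minus wild-type log2 difference of -0.73 ± 0.20 (95% interval -1.17 to -0.29, edgeR adjusted p = 0.688). MSMO1 followed at -0.58 ± 0.17 (95% interval -0.97 to -0.20, edgeR adjusted p = 0.688). For IDI1 the interval of the difference ran from -0.88 to 0.048, for SREBF2 from -0.29 to 0.72 and for SCD from -0.33 to 0.40. A p that misses the threshold does not show that the lines respond alike.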

How the data were processed

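Sequencing covered 8 libraries of rRNA-depleted total RNA, 2 per group. Trimmomatic and kallisto were used with GRCh38, per the submitters' processing notes. Their versions, the transcript annotation and the strandedness are not stated in the labels. The authors deposited estimated counts per Ensembl gene ID, without normalization, for 40295 gene IDs and 63 ERCC spike-ins. Names, positions, lengths and GC content came from GENCODE 29 (35583 IDs matched). No member shared its counts with another ID.

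Rounding the estimated counts gave whole numbers, which were tested with edgeR 4.0.16 in R 4.3.3 (filterByExpr with a minimum count of 10, 16519 genes, TMM factors of 0.860 to 1.134, group as the only factor over all 8 libraries, quasi-likelihood F test, Benjamini-Hochberg over all tested genes, threshold 0.05; common dispersion 0.0415). Standard errors are the size of the log2 fold change over the square root of F. The fit was also run on data simulated with few genes changed and no trend on GC content. The real libraries differ in both, so that run does not check the calls given here.

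The members and lists were chosen with earlier results of these data known. Named are, per comparison and pathway step, the 3 called members with the largest change, SREBF1, SREBF2, SCAP, INSIG1, HMGCS1, SQLE, CYP51A1, FASN, ACACA and SCD, and up to 2 called genes of each neighbouring list; other members named beside them were added for completeness after their values were seen. Alternatives were DESeq2's size factors, DESeq2 1.42.0, other filters on low counts, only the groups compared, the replicate number as a block, each library left out, the knock-in libraries with plasma cell transcripts left out, ERCC scaling, and removal of the GC and length trend (loess, span 0.3; GC known for 92.4% of tested genes). Promoters came from RefSeq. Some genes of the neighbouring lists are not reported here.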

Additional observations from a re-analysis of the deposited data

Results flagged for a closer look

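STARD4 was the only one of the 34 genes whose line difference pointed opposite ways in the 2 states with no overlap of libraries. STARD4 was picked by this pattern, and how many of all tested genes share it was not counted. It had 102 and 94.7 CPM in untreated knock-in cells against 78.1 and 93.5 CPM in untreated wild-type cells, and 41.0 and 41.4 CPM in treated knock-in cells against 56.2 and 62.5 CPM in treated wild-type cells. The difference between the responses was -0.73 ± 0.20 on the log2 scale and did not pass over all genes (edgeR adjusted p = 0.688). With the GC and length trend removed, the line difference was negative in both states, at -0.17 without and -0.54 with IFN-γ, and the wild-type response turned from called lower to called higher, at 0.31 (edgeR adjusted p = 0.0421).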

How the results depend on the processing

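The directions of the calls held under DESeq2, its size factors, both other filters and the replicate block, and the exceptions follow. For the 26 genes called in the knock-in response, leaving out 1 library gave 22 to 25, leaving out both libraries with plasma cell transcripts 14, and removal of the GC and length trend 15 (16 with the replicate block). The 20 of the wild-type response became 11 to 28 with 1 library left out. The 11 line differences without IFN-γ became 3 from only the groups compared, 1 to 19 with 1 library left out, and 1 without both plasma cell transcript libraries. The 6 with IFN-γ became 12 with DESeq2, 14 with no filter, 19 from only the groups compared, 0 to 2 with 1 library left out, 0 without both plasma cell transcript libraries, 18 with the GC and length trend removed (19 with the block) and 2 under ERCC scaling. For the difference between the responses the count was 0 in each alternative. ERCC scaling turned wild-type responses of LSS to -0.14, DHCR7 to -0.31, SCD to -0.081, ACLY to -0.052, FADS1 to -0.40, FADS2 to -0.14, NR1H2 to -0.19 and MYLIP to -0.19. Removal of the GC and length trend turned MSMO1 to 0.074 (0.080 with the block) and MBTPS2 to 0.23 (0.23) and STARD4 to 0.31 in wild-type cells, and MVK to -0.12, CYP51A1 to 0.45 (0.45) and FADS2 to -0.11 (-0.11) in knock-in cells. ELOVL5, ACSS2 and TM7SF2, not called before, also changed sign and became calls in knock-in cells. The cause of these shifts was not tested. With the replicate number as a block, 26, 22, 13, 5 and 0 genes were called in the knock-in response, the wild-type response, the line differences without and with IFN-γ and the difference between responses. The labels do not say what a shared number marks, and deviations of same-numbered libraries correlated at 0.27 between the knock-in groups and below 0.1 for the other pairs of groups, and replicate 2 of both knock-in groups shares plasma cell transcripts, so the block was kept as an alternative. With 2 libraries per group, changes near the threshold depend on each library. For each response and line difference, the number of all tested genes called also differed between the alternatives.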
